A study of Canis lupus familiaris with 2 samples.

Results

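The genes described here encode the cyclic nucleotide-gated channel of the photoreceptor outer segment and the sodium/calcium-potassium exchangers that work beside it. They are 6 genes, chosen by name and with earlier results of these data known. *CNGA1*, *CNGB1* and *SLC24A1* are known from rods, and *CNGA3*, *CNGB3* and *SLC24A2* from cones. Each was found under its symbol in a single row of both count tables, among the 34981 genes listed for one dog (N350) and the 19947 listed for the other (N354). The tables have 15224 gene names in common. The samples were neuroretina of 2 normal or wild-type dogs, both male and 40 weeks of age, and no treated or affected animal was in the series. Retinal punches were dissociated with trypsin and an enzyme kit for neural tissue. Cells were then isolated in droplets, where each mRNA molecule is tagged near its 3′ end with a unique molecular identifier (UMI).

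In darkness, cyclic GMP holds the channel open and sodium and calcium flow into the outer segment. Light leads to hydrolysis of cyclic GMP and the channel closes, while the exchanger goes on removing calcium, and the fall in calcium starts recovery and adaptation. The channel is built from A subunits, which form the pore and bind cyclic GMP, and B subunits, which modulate gating. Rods and cones use separate genes for both subunits. Loss of the cone subunits is known to cause achromatopsia or day blindness, and loss of the rod subunits to cause retinitis pigmentosa.

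Cells were sorted into classes by the UMIs of marker genes, none of which was 1 of the 6 genes. With at least 200 genes there were 8895 cells from N350 and 4387 from N354 (median depth 1298 and 1204.5 UMIs over all barcodes), and 7848 and 4135 of these fell into 7 classes present in both dogs. Rods numbered 5437 in N350 and 2952 in N354, cones 365 and 215, bipolar cells 351 and 264, and Müller glia 1183 and 577. Amacrine and ganglion cells (182 and 35), horizontal cells (175 and 30) and astrocytes (155 and 62) were the smaller classes. In N354 the amacrine and ganglion class had no UMI of the ganglion markers *SNCG*, *RBPMS*, *SLC17A6* and *POU4F2*, whereas in N350 every marker of its list was found. *SAG* and *GNAT1* were among the leading genes of rods in both dogs, and cones were led by *PDE6H* and *ARR3* in both dogs. These are sorting markers, so their lead follows from the sorting and does not test the class names. Among genes that were no markers, *PDE6A* and *CLUL1* were among the leading genes of rods in both dogs. The dogs were counted on different gene annotations, so that a difference between the dogs and a difference in gene models cannot be told apart. The dogs had 6 cell barcodes in common.

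A level is the count of a gene's UMIs for every 10000 UMIs in the pooled cells of 1 class and dog, N350 first, and brackets enclose the exact Poisson 95% interval. These intervals cover counting error only.

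*CNGA1*, the A subunit of the rod channel, was the most abundant of the 6 genes in UMIs, with 31235 in N350 and 19441 in N354. N350 rods had a level of 40.7 (40.2 to 41.1), and N354 rods one of 49.2 (48.5 to 49.95). In cones the level was 3.02 (2.76 to 3.30) and 3.53 (3.11 to 3.98). Rods stood far above each other class in both dogs. A *CNGA1* UMI was found in 94.8% of rods in N350 and 98.1% in N354, and up to 50 UMIs were counted in a single rod. Over the other classes the mean level of the dogs was 4.27 ± 0.80 in bipolar cells, 2.31 ± 0.72 in Müller glia, 1.45 ± 0.61 in astrocytes, 0.897 ± 0.319 in amacrine and ganglion cells and 0.853 ± 0.741 in horizontal cells (SD, n = 2). Bipolar cells came next after rods in both dogs, above cones by 1.60 times (1.41 to 1.82) in N350, whereas in N354 bipolar cells and cones did not differ beyond counting error.

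*CNGB1*, the B subunit of the rod channel, was also highest in rods but had far fewer UMIs, 840 in N350 and 1274 in N354. Its level in rods was 1.10 (1.03 to 1.19) and 3.17 (2.98 to 3.36). In cones it was 0.102 (0.0594 to 0.163) and 0.365 (0.241 to 0.531). In N350 no neighbouring classes below the rods differed beyond counting error, and in N354 only cones and Müller glia did, by 1.64 times (1.01 to 2.56). A *CNGB1* UMI was seen in 12.0% of rods in N350 and 29.8% in N354, and rods with UMIs of both subunits had more UMIs of all genes, with medians of 1503 and 1258.5, than rods with neither, with medians of 675 and 648. The level in rods differed between the dogs by 2.87 times (2.61 to 3.15), against 1.21 times (1.19 to 1.23) for *CNGA1*.

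*SLC24A1* encodes NCKX1, the rod exchanger, which exports calcium in exchange for sodium and carries potassium out with it. Its level in rods was 8.17 (7.96 to 8.39) and 10.6 (10.3 to 10.9). In cones it was 0.539 (0.434 to 0.663) and 0.838 (0.643 to 1.07). A UMI of it was present in 53.9% and 64.5% of rods. In N350 bipolar cells, at 0.919 (0.736 to 1.13), stood above cones, while in N354 they stood below cones, at 0.315 (0.193 to 0.487). The remaining classes lay between 0.170 and 0.310 in N350 and between 0.0470 and 0.748 in N354, where Müller glia and cones did not differ beyond counting error.

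Rods held 27.6% of all UMIs in N350 and 36.7% in N354. They held 86.2% and 89.9% of the *CNGA1* UMIs, 87.0% and 88.2% of those of *CNGB1*, and 88.5% and 88.5% of those of *SLC24A1*.

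*CNGA3*, the A subunit of the cone channel, was almost absent outside cones. Its level in cones was 1.29 (1.13 to 1.48) and 2.26 (1.93 to 2.63). In rods there were 3 UMIs in 5437 cells of N350 and 0 UMIs in 2952 cells of N354, the latter a level of at most 0.00845 by the limit of 3 counts that a count of 0 allows. Cones held 96.0% of the 225 *CNGA3* UMIs of N350 and 95.4% of the 175 of N354, though they held 6.96% and 7.64% of all UMIs. A *CNGA3* UMI was found in 35.9% and 42.3% of cones and in 0.0552% and 0% of rods, whose median depth of 1056 and 1019 UMIs was below the 3822 and 2567 of cones. After thinning each cell to 1000 UMIs, the shares in cones were 11.1% and 21.1%, against 0.0173% and 0% in rods. No other class held more than 4 UMIs in either dog, and those classes could not be ordered beyond counting error.

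*CNGB3*, the B subunit of the cone channel, was likewise found almost wholly in cones, which held 86.9% of its 259 UMIs in N350 and 92.7% of its 289 in N354. Its level in cones was 1.35 (1.18 to 1.54) and 3.62 (3.202 to 4.08). In rods 6 UMIs were counted in N350 and 1 UMI in N354. A *CNGB3* UMI was found in 38.1% and 48.8% of cones, or in 12.99% and 29.4% at 1000 UMIs per cell. The classes other than cones did not differ from their neighbours in the order beyond counting error. Both cone subunits were seen in the same cell in 81 of 365 cones of N350 and in 71 of 215 cones of N354, and neither was seen in 176 and 90. Cones with both had a median of 7852 and 6456 UMIs of all genes, and those with neither had 1213 and 688.

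*SLC24A2* encodes NCKX2, a cone exchanger, which is also known from neurons of the brain. Unlike the cone channel genes it was present in a further class of retinal neurons in N350. Cones had a level of 2.06 (1.85 to 2.29) in N350 and one of 0.581 (0.421 to 0.783) in N354. In amacrine and ganglion cells it was 1.23 (1.07 to 1.40) in N350, from 224 UMIs, and 0.187 (0.0606 to 0.435) in N354, from 5 UMIs in 35 cells. Cones were the highest class in both dogs, above amacrine and ganglion cells by 1.68 times (1.42 to 1.998) and 3.12 times (1.24 to 10.1). In N350 the order went on downwards through bipolar cells at 0.285, horizontal cells at 0.130 and Müller glia at 0.0365, each step beyond counting error. The place of bipolar cells depended on the gate. They had 27 *SLC24A2* UMIs in 351 cells, but 4 in 254 cells with a stricter gate, where horizontal cells had 18 in 120 cells. Rods held 14 UMIs in N350 and 0 in N354, the latter a level of at most 0.00845. Of all *SLC24A2* UMIs, cones held 43.2% and 65.2%, and amacrine and ganglion cells held 28.1% and 7.58%.

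Within the amacrine and ganglion class of N350, *SLC24A2* was uneven. In the 25 cells with more UMIs of 7 ganglion markers (among them *NEFL*, *NEFM* and *SNCG*) than of 7 amacrine markers (among them *GAD1*, *C1QL2* and *TFAP2B*), the level was 2.39 (2.01 to 2.83), and in the 155 cells with the reverse it was 0.693 (0.554 to 0.856), a ratio of 3.45 (2.61 to 4.57). The 25 cells had a median of 3598 UMIs but 568896 UMIs in sum, so the deeper cells weigh most in their level. The intervals do not cover the spread between cells. In N354 only 2 cells had more ganglion markers, with no *SLC24A2* UMI, and the 33 others had 5 UMIs. This division was made after the levels had been seen, and the makeup of the class differed between the dogs, with *NEFL* and *CARTPT* leading in N350 and *SYNPR* and *TRH* in N354.

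**Figure D1:**
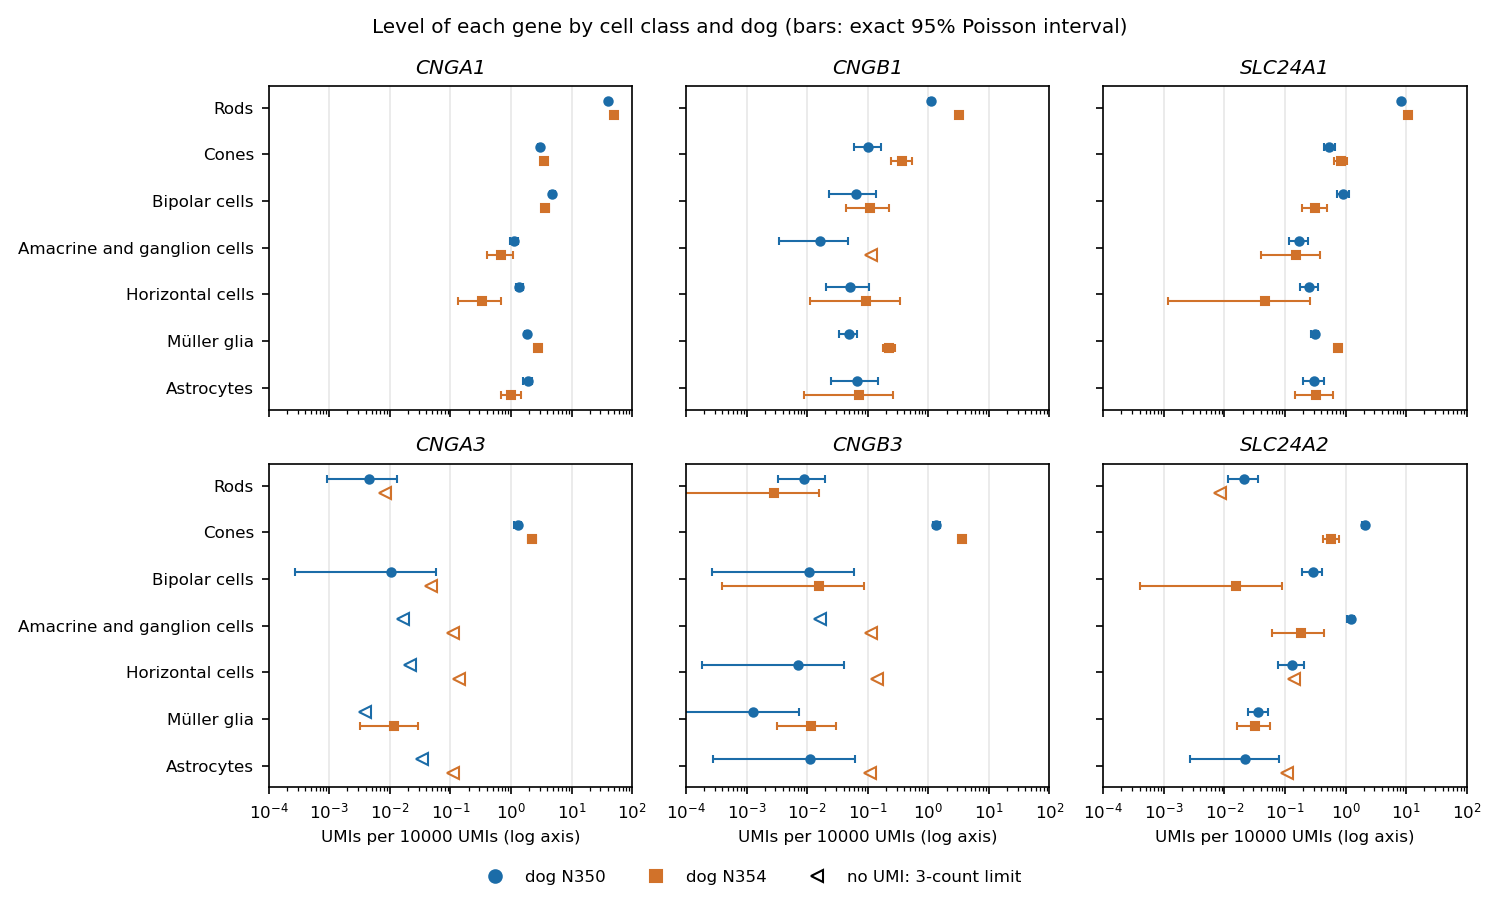
Level of each gene in UMIs per 10000 UMIs (log axis) in 7 cell classes of dogs N350 and N354. Points are the sums over the cells of a class, bars are exact Poisson 95% intervals, and open triangles mark the limit of 3 counts where no UMI was found. *CNGA1* in rods sits at 40.7 and 49.2 and remains at 0.329 or more in all other classes, whereas *CNGA3* and *CNGB3* are at 1.29 or more in cones and at 0.0158 or less wherever a UMI was found elsewhere.

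The main question was how far the gene sets separate rods from cones. The rod genes were 8.67 to 15.1 times higher in rods than in cones, and the cone genes were from at least 68.8 to 1286 times higher in cones than in rods. *CNGA1* was higher in rods by 13.5 times (12.3 to 14.7) in N350 and 13.9 times (12.3 to 15.8) in N354. *CNGB1* was higher in rods by 10.8 times (6.72 to 18.7) and 8.67 times (5.93 to 13.2). *SLC24A1* was higher in rods by 15.1 times (12.3 to 18.9) and 12.6 times (9.84 to 16.5). For each of these genes the intervals of the dogs overlapped.

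In the opposite direction, *CNGA3* was higher in cones by 286 times (96.5 to 1397) in N350, with 3 UMIs in rods, and at least 267-fold higher in N354. *CNGB3* was higher in cones by 149 times (67.3 to 410) and by 1286 times (229 to 50991), the latter against 1 UMI in rods. *SLC24A2* was higher in cones by 97.5 times (57.3 to 180) in N350 and at least 68.8-fold higher in N354. The bounds set the floor of 3 counts against the summed rods of that dog. The 7 cone markers used for sorting stood in rods at 0.637% to 1.18% of their level in cones in N350 (median 0.999%). In N354 they stood at 0.140% to 0.245% (median 0.185%). In rods of N350 *CNGA3* stood at 0.350%, *CNGB3* at 0.672% and *SLC24A2* at 1.03%, and in N354 *CNGB3* stood at 0.0777%. Whether free cone RNA gave these counts, and the difference between the dogs in these ratios, was not tested.

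**Figure D2:**
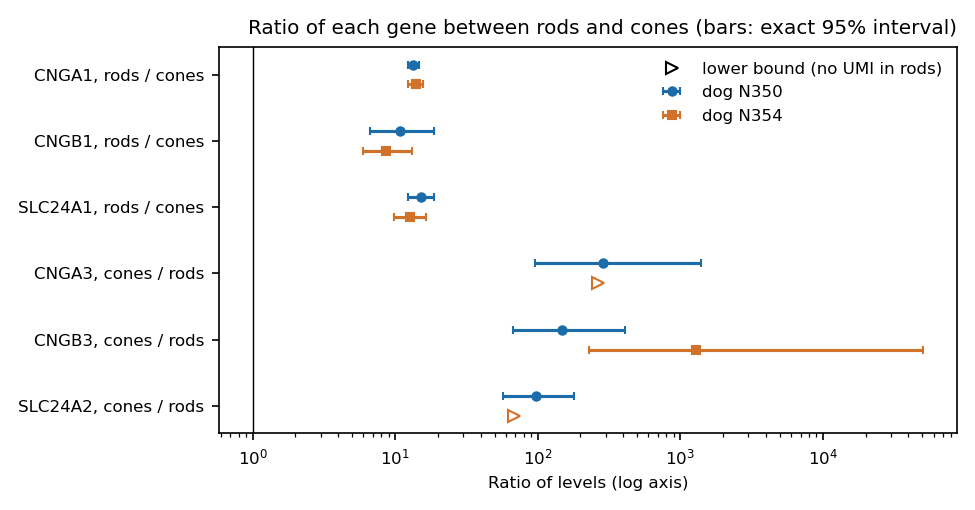
Ratio of the level in rods to that in cones for the rod genes, and in cones to rods for the cone genes (log axis), in each dog. Bars are exact conditional 95% intervals for counting error and open triangles are lower bounds where rods had no UMI. The rod genes lie between 8.67 and 15.1 in both dogs and the cone genes at 68.8 or more.

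The classes were compared over the dogs by the quasi-likelihood test of edgeR on the summed counts (n = 2 sums per class), with Benjamini-Hochberg adjustment over the 12059 genes tested, which included all 6 genes. Of the 6, 3 passed an adjusted p of 0.05 between cones and rods, against 1.44% of all genes tested (1.1% higher and 0.34% lower in cones). *CNGA1* fell by 3.68 on the log2 scale in cones (SE 0.66, adjusted p = 0.0296) and *SLC24A1* fell by 3.66 (SE 0.72, adjusted p = 0.0413). *CNGB3* rose by 8.57 (SE 1.12, adjusted p = 0.0123). *CNGA3* had a log2 difference of 9.15 (SE 1.70, adjusted p = 0.0637), *SLC24A2* of 6.81 (SE 1.78, adjusted p = 0.116) and *CNGB1* of -3.08 (SE 0.91, adjusted p = 0.179). All 6 differed in 1 direction in both dogs. With the dog as a block, which pairs the classes of an animal, all 6 passed in the same directions, with adjusted p-values of 9.96e-08 for *CNGA3*, 8.19e-08 for *SLC24A2* and 1.26e-06 for *CNGB1*, and the share of all genes called was then 18.1% (10.1% higher and 8.04% lower). The fitted differences of *CNGA3* and *SLC24A2* depend on the prior count, because rods of N354 had no UMI of either. Without cells of more than 10% mitochondrial UMIs, *CNGA1* (-3.32, adjusted p = 0.0518) and *SLC24A1* (-2.89, adjusted p = 0.0857) no longer passed.

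Rods were next compared with the mean of the 5 classes that are neither rods nor cones. The 3 rod genes rose in rods and none of the cone genes passed, against 15.1% of all genes called in either direction (8.57% higher and 6.55% lower in rods). The log2 difference was 4.71 for *CNGA1* (adjusted p = 9.12e-05), 5.08 for *CNGB1* (adjusted p = 0.000479) and 4.85 for *SLC24A1* (adjusted p = 0.000115) by edgeR. *SLC24A2* had a difference of -2.92 (adjusted p = 0.207), which passed with the dog as a block (-2.85, adjusted p = 0.00235), a fit that called 50.9% of all genes (26.5% higher and 24.4% lower). *CNGA3* at 0.98 (adjusted p = 0.708) and *CNGB3* at 0.39 (adjusted p = 0.751) rest on 0 to 6 UMIs in rods.

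In cones against the same 5 classes, the 3 cone genes rose, and 8.04% of all genes were called (5.95% higher and 2.09% lower). The log2 difference was 10.13 for *CNGA3* (adjusted p = 0.00233), 8.97 for *CNGB3* (adjusted p = 0.000125) and 3.89 for *SLC24A2* (adjusted p = 0.0313) by edgeR. The rod genes did not pass, at 1.03 for *CNGA1* (adjusted p = 0.211), 1.99 for *CNGB1* (adjusted p = 0.106) and 1.19 for *SLC24A1* (adjusted p = 0.190). With the dog as a block they did, at 0.998 (adjusted p = 0.0112), 1.63 (adjusted p = 0.00204) and 1.02 (adjusted p = 0.0310), where 31.2% of all genes were called (17.3% higher and 13.9% lower).

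The isoforms were then set against each other within a class as the share of a pair's UMIs that belonged to the rod gene, with exact binomial 95% intervals. Because each molecule is counted once near its 3′ end, these are shares of molecules counted and depend on how well each annotation covers the 3′ ends. In rods *CNGA1* made up 99.99% of *CNGA1* and *CNGA3* UMIs in N350 and 100% in N354, *CNGB1* made up 99.2% and 99.9% of its pair, and *SLC24A1* made up 99.7% and 100%. In cones the pairs differed from each other. *CNGB1* was the minor gene in cones, at 7.02% (4.14 to 11.0) in N350 and 9.15% (6.12 to 13.04) in N354. *CNGA1* held 70.0% (66.5 to 73.3) and 61.0% (56.2 to 65.6) by count, but in N354 its share was 47.9% (42.2 to 53.6) without likely doublets and 51.2% (45.6 to 56.8) with a stricter gate, where it was no longer the major gene beyond counting error. The exchanger pair leaves out *SLC24A4*, a further exchanger gene found in cones. *SLC24A1* made up 20.7% (17.0 to 24.9) and 59.0% (49.0 to 68.5). Without likely doublets it made up 18.1% (14.3 to 22.3) and 40.6% (28.9 to 53.1), and in cells with at most 10% mitochondrial UMIs 21.6% (17.5 to 26.1) and 78.9% (68.1 to 87.5), so that *SLC24A1* was the minor gene in N350 and the order of the pair in N354 depended on the cells kept.

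**Figure D3:**
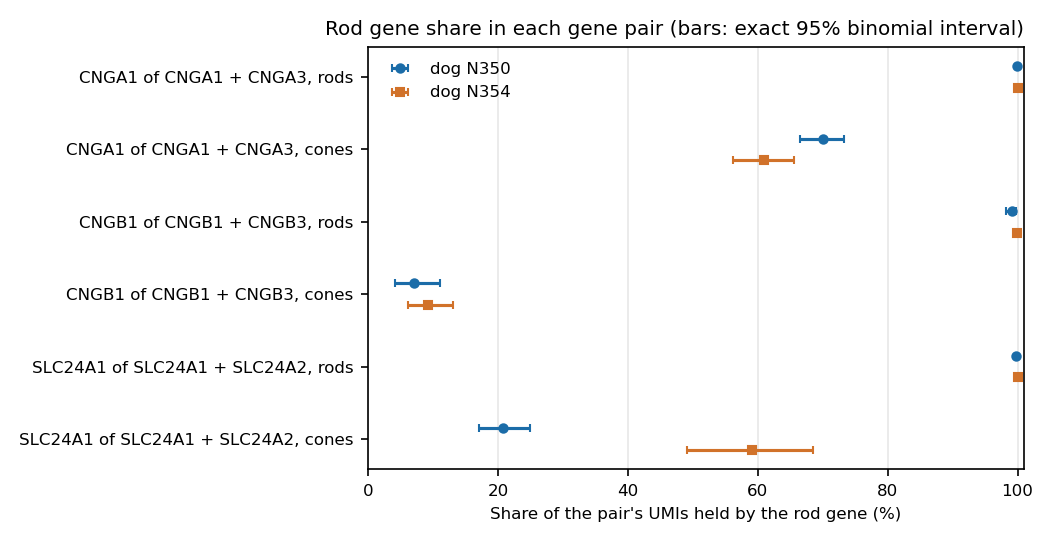
Share of UMIs of the rod gene in each pair of rod and cone genes, in percent, for rods and cones of each dog, with exact binomial 95% intervals. All shares in rods are at 99.2% or above, and shares in cones range from 7.02% for *CNGB1* to 70.0% for *CNGA1*.

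Rod markers were present in cones at a like share of their level in rods. *PDE6B*, a rod gene that was no marker, stood higher in cones relative to the markers, as given below. The rod markers used for sorting (7 listed in N350 and 5 in N354) stood in cones at 6.30% to 14.3% of their level in rods in N350, with a median of 7.51%, and at 7.35% to 11.3% in N354, with a median of 7.80%. *CNGA1* stood at 7.43% (6.79 to 8.12) and 7.17% (6.32 to 8.10), *CNGB1* at 9.23% and 11.5%, and *SLC24A1* at 6.60% and 7.91%. None of the 3 exceeded the highest of the rod markers, which was *SAG* in both dogs, beyond its interval (7.56 to 16.9 for *CNGB1* in N354). Cones with fewer than 1000 UMIs (75 and 80 cells) had *CNGA1* levels of 12.2 and 7.22, and those with at least 1000 UMIs had 0.222 and 0.448 times as much. In these shallow cones 2 UMIs of *CNGA3*, 1 of *CNGB3* and 1 of *SLC24A2* were counted in N350, and 1, 7 and 0 in N354. Whether free rod RNA or rods caught with cones gave these counts was not tested. In N354 a single cone held 57 of the 261 *CNGA1* UMIs of its class.

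Outside rods, the UMIs of a gene were also divided by the summed UMIs of the rod markers in the same class, relative to the same quotient in rods, which is 1 where a gene comes with rod RNA in fixed proportion. In Müller glia *CNGA1* gave 0.989 (0.937 to 1.04) in N350 and 0.914 (0.856 to 0.975) in N354. In cones it gave 0.803 (0.733 to 0.877) and 0.836 (0.737 to 0.945). In bipolar cells it gave 1.31 (1.19 to 1.44) and 2.03 (1.78 to 2.31), above 1 in both dogs. *PDE6A*, a rod phosphodiesterase subunit that was no marker, gave 0.981 (0.820 to 1.16) and 0.936 (0.714 to 1.21) there. The sorting also limits the rod markers that a bipolar cell may hold, and its part in these quotients was not tested. *PDE6B*, the other catalytic subunit in rods, gave 1.11 (0.932 to 1.32) and 1.29 (0.960 to 1.69) in bipolar cells and 1.88 (1.70 to 2.08) and 1.98 (1.72 to 2.27) in cones. *CNGB1* gave 0.633 (0.232 to 1.39) and 0.941 (0.377 to 1.94) in bipolar cells, and *SLC24A1* gave 1.24 (0.992 to 1.53) and 0.803 (0.490 to 1.24).

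The excess of *CNGA1* in bipolar cells was also present without likely doublets, at 1.43 (1.29 to 1.59) and 4.07 (3.47 to 4.75). It was not seen in cells with at most 10% mitochondrial UMIs, at 1.12 (0.975 to 1.27) in 93 cells and 1.01 (0.757 to 1.31) in 28 cells. Of the bipolar cells, 48.4% in N350 (median depth 2256 UMIs) and 45.8% in N354 (median depth 2451 UMIs) had a *CNGA1* UMI. After thinning to 1000 UMIs the shares were 30.2% and 25.3%, and those of cones were 25.5% and 17.5%.

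**Figure D4:**
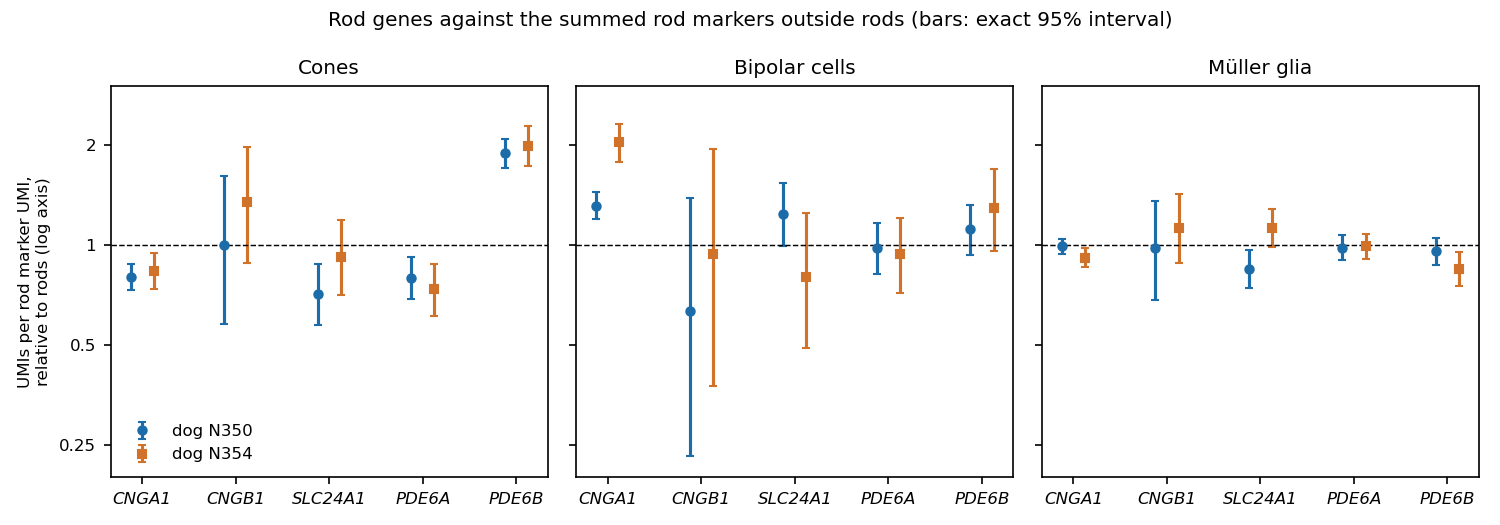
UMIs of rod genes per UMI of the summed rod markers in cones, bipolar cells and Müller glia, relative to rods (log axis; the dashed line is at 1), with exact 95% intervals for counting error in each dog. *CNGA1* is above 1 in bipolar cells of both dogs (1.31 and 2.03), and *PDE6B* is above 1 in cones (1.88 and 1.98).

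Cones were divided by their opsin. In N350, 56 cones had more *OPN1SW* than *OPN1LW* UMIs and 145 had the reverse, and in N354 there were 15 and 115. Cones with neither ahead, 164 in N350 and 85 in N354, were left out. Median depth was 4315.5 UMIs in the first group and 7489 in the second in N350, and 5057 and 5052 in N354. *CNGB3* did not differ between them beyond counting error, with ratios of 1.06 (0.732 to 1.51) and 1.003 (0.670 to 1.46) of the short-wavelength to the long-wavelength cones. *CNGA3* was lower in short-wavelength cones of N350, at 0.572 (0.352 to 0.892), and did not differ in N354, at 0.953 (0.557 to 1.54). *SLC24A2* gave 0.824 (0.590 to 1.13) and 0.167 (0.00413 to 0.983), the latter from 1 UMI. In N350 the short-wavelength cones also had 3.35 times (2.66 to 4.20) the *CNGA1* level of the others, and in N354 0.653 times (0.365 to 1.09). Neither the part of *CNGA1* nor that of depth in the *CNGA3* difference was tested.

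Rods were compared by mitochondrial share and by depth. Rods with over 10% mitochondrial UMIs had 0.850 times (0.818 to 0.882) the *CNGA1* level of rods with up to 5% in N350 and 0.939 times (0.902 to 0.978) in N354. *SLC24A1* gave 0.717 (0.656 to 0.784) and 0.974 (0.892 to 1.06), and *CNGB1* gave 0.738 (0.567 to 0.949) and 0.889 (0.750 to 1.05). By this measure all 3 were lower in N350, and only *CNGA1* was lower in N354. Levels are taken over all UMIs, mitochondrial ones included, so the split by mitochondrial share itself lowers each ratio. In N350 the intervals of *SLC24A1* and *CNGA1* did not overlap. Whether any of the 3 changed relative to the other RNA of rods was not tested. *CNGA1* was nearly independent of depth, with ratios of 0.976 (0.9505 to 1.003) and 0.956 (0.926 to 0.987) of rods with at least 1000 UMIs to those with fewer. *CNGB1* in N350 was 1.47 times (1.22 to 1.77) higher in the deeper rods.

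Other genes of the same system were taken as a list of 39, of which 35 could be tested. The list was chosen with earlier results of these data known, so its counts and medians beside all genes are a description. Between cones and rods 2 of them rose and 3 fell (5 of 35, beside 1.44% of all genes), and the median log2 difference of the list was -0.54 beside -0.07 for all genes. With the dog as a block 6 rose and 10 fell, beside 10.1% and 8.04% of all genes. Among the exchangers, *SLC24A4*, which encodes NCKX4, rose in cones by 6.67 (SE 0.95, adjusted p = 0.0171 by edgeR). Its level in cones was 1.29 in N350 and 1.46 in N354, in rods 0.0226 and 0.00282, and in bipolar cells 1.08 and 1.94. In cones of N354 this was above *SLC24A1* (0.838) and *SLC24A2* (0.581). In cones of N350 it lay between *SLC24A1* (0.539) and *SLC24A2* (2.06). Cones and bipolar cells stood above rods in both dogs. *GRK7*, the cone opsin kinase, rose by 7.28 (adjusted p = 0.0123), from 0.0619 and 0.0225 in rods to 6.16 and 6.68 in cones.

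The list members that fell in cones were partners of the rod cascade. *PDE6A* fell by 3.79 (adjusted p = 0.0178), *GNB1*, the beta subunit of rod transducin, fell by 3.51 (adjusted p = 0.0123), and *GUCY2F*, a guanylate cyclase that makes cyclic GMP, fell by 3.74 (adjusted p = 0.0340) by edgeR. These differences were close to those of *CNGA1* and *SLC24A1*. *GNB3*, the beta subunit of cone transducin, had a difference of 6.40 (adjusted p = 0.0951), and *GUCA1C*, a calcium sensor of the cyclase, of 6.67 (adjusted p = 0.0950), and both passed with the block. *PRPH2* and *ROM1*, disc rim proteins to which the rod channel is anchored, had differences of -1.32 (adjusted p = 0.584) and -2.06 (adjusted p = 0.0903).

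Against the 5 other classes, 17 of the 35 rose and 3 fell in rods, and 14 rose and 0 fell in cones, at an edgeR adjusted p of 0.05. Of all genes, 8.57% rose and 6.55% fell in rods, and 5.95% and 2.09% in cones. With the block 20 rose and 9 fell in rods, beside 26.5% and 24.4% of all genes, and 20 rose and 6 fell in cones, beside 17.3% and 13.9%. The lower calls with the block were thus near the share of all genes. The list's median log2 difference was 2.99 in rods beside -0.06 for all genes, and 1.11 in cones beside -0.08. *CACNA1F*, the calcium channel of the photoreceptor synapse, *RCVRN*, *RGS9* and *GUCY2D* rose in both rods and cones. *ATP2B2*, a calcium pump of the plasma membrane, fell in rods by 2.74 (adjusted p = 0.030), as did the exchanger *SLC8A3* by 3.32.

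Finally, the genes most like each of the 6 were ranked by Pearson correlation of log2(level + 0.1) over the 14 sums of class and dog, among 8066 genes. The sums share cells' libraries and classes, so the correlations are a description, and *GNAT1*, *PDE6G*, *GNGT1* and *OPN1LW* were among the markers that defined the classes. *CNGA1* and *SLC24A1* each had the other among their 5 most like genes (r = 0.975), together with *GNAT1*, *PDE6G* and *PDE6A*. *SLC24A1* was most like *PDE6A* (r = 0.992). *CNGB1* was most like *GNGT1* (r = 0.974) and *CLUL1* (r = 0.968), and neither *CNGA1* nor *SLC24A1* was among its 5. The sums also carry the difference between the dogs. In rods N354 stood above N350 by 2.87 times for *CNGB1*, 1.21 times for *CNGA1* and 1.30 times for *SLC24A1*. The part of this difference in the ranking was not tested. *CNGA3* and *CNGB3* each had the other among their 5, beside *ERMN*, *OPN1LW*, *WNT11* and *ATP6V1C2*, and were like each other at r = 0.997. Both stood at 0.0158 or less in every class but cones, so these values rest on cones against the rest. *SLC24A2* was most like *LYPD1* (r = 0.967), *TMEM178A* and *ADAM22*, and had no gene in common with the other 5.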

How the data were processed

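The authors aligned and counted reads with Cell Ranger and deposited raw UMI counts per gene and cell, without normalization (version 6.0.2 per the file headers). The study names the canFam6 build, the files name none, and gene names came from the files. N350 had 24030707 UMIs in 8900 barcodes and N354 had 9711202 in 4392. In N354, 17 names occurred more than once and were summed.

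Cells with at least 200 genes were kept, without a mitochondrial limit. Cones had been expected in both dogs only without a limit, but a limit of 10% also left cones in both. The study itself left out cells with more than 5% mitochondrial content. The 13 mitochondrial genes were found in both dogs, but 1 name in N350 and 12 in N354 started with MT-. With at most 10% mitochondrial UMIs, 275 cones were left in N350 and 60 in N354, and 93 and 28 bipolar cells. A marker list counted for a cell given at least 5 marker UMIs, 2 distinct markers and an enrichment over its dog's mean of 3 (1 for rods and Müller glia). The cell joined the class of the most enriched list that counted, provided no other list that counted was above 1/2 of the best. These thresholds were set after marker counts, and before levels of the 6 genes, had been seen. The 268 and 33 mixed and 723 and 207 unassigned cells entered no comparison, nor did 40 vascular cells of N350. Scrublet's own threshold (scanpy 1.11.5) marked 0% and 0.0455% of cells, so doublets were left to the mixed rule, and removal of the top 4% by score was an alternative.

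Counts were summed per dog and class and tested with edgeR 4.0.16 (R 4.3.3; TMM, quasi-likelihood, genes with at least 10 UMIs, all 7 classes in 1 fit). SEs were derived from the test statistic. Fold changes use the tool's own prior count. Intervals were computed with scipy 1.17.1 and cover counting error only. Thinned shares are expected values under hypergeometric sampling of 1000 UMIs per cell, leaving out shallower cells (2452 and 1424 rods, 75 and 80 cones, 36 and 23 bipolar cells). The sums of a dog come from the same animal and are paired: their deviations from class means correlated between 0.674 and 0.871 over 21 pairs of classes (median 0.732, 8066 genes). Without the block, p-values rest on the spread between 2 dogs within classes, estimated over all 7 classes with information shared over genes. With the block, the mean difference between the dogs is removed first, and p-values rest on the spread that remains.

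The 6 genes, the marker lists and the list of 39 genes were chosen with earlier results of these data known. Named were the 6 genes, genes of that list and the 5 genes most like each. Of those 39, *CNGB2* was in neither table, and some are counted but not reported by name here. Symbols of the 6 genes were all in the RefSeq gene table of UU_Cfam_GSD_1.0, of which no coordinate was used.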

Additional observations from a re-analysis of the deposited data

How the results depend on the processing

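Of the 18 log2 differences of the 6 genes, most kept their direction and their side of the threshold under other size factors, no count filter, other gates, removal of likely doublets and cell limits, and the exceptions follow. With the dog as a replicate block, *CNGA1* (0.998), *CNGB1* (1.63) and *SLC24A1* (1.02) in cones over the other classes passed, as did *CNGB1* (-3.16), *CNGA3* (8.91) and *SLC24A2* (6.88) in cones over rods and *SLC24A2* (-2.85) in rods over the other classes. No other call of the 6 changed with it. By the DESeq2 test (version 1.42.0), *CNGB1* (-3.01, adjusted p = 0.0369), *CNGA3* (9.69, adjusted p = 0.0235) and *SLC24A2* (7.07, adjusted p = 0.00134) passed between cones and rods. *CNGA3* there also passed without likely doublets (9.54), with the stricter (9.44) and looser (9.50) gates and, as alternatives chosen after seeing the data, with at most 10% mitochondrial UMIs (9.74) and in cells with at least 1000 UMIs (9.12). The 10% limit ended the calls of *CNGA1* (-3.32) and *SLC24A1* (-2.89). In rods over the other classes, where few UMIs were counted, *CNGA3* turned to -0.93 and *CNGB3* to -0.27 by DESeq2, and *CNGB3* to -0.0075 with the stricter gate and -0.68 with the 10% limit. The causes were not tested.

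Counts of genes between cones and rods, 133 higher and 41 lower, were 1218 and 969 with the block, 474 and 132 by DESeq2, and 71 and 10 with the 10% limit. In rods over the other classes, 1034 and 790 became 3198 and 2941 with the block, and 415 and 451 with less than 5% on MT- names, and 1815 were lower by DESeq2. In cones over the other classes, 718 and 252 became 2083 and 1680 with the block, and 458 and 102 with the 10% limit, and 637 were lower by DESeq2. The MT- limit left 365 cones in N350 but 2 in N354, under the minimum of 20 cells, and so gave no contrast of cones. Its other classes were only Müller glia and astrocytes, so its counts of 415 and 451 are of an unlike contrast. The 10% limit and the stricter gate left out horizontal cells, so that 4 other classes remained. The mean share of *CNGA1* in its pair in cones was 65.5% and became 58.7% with the stricter gate, 58.5% without likely doublets and 73.0% with the 10% limit, and that of *CNGB1*, 8.09%, became 6.23% and 10.0% under the last of these.

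Leaving out either dog leaves no test. The log2 differences then ranged from 4.59 to 5.49 for *SLC24A1* and 0.49 to 1.16 for *CNGB3* in rods over the other classes, from 10.18 to 10.93 for *CNGA3* and 8.29 to 10.69 for *CNGB3* in cones over them, and for *SLC24A2* from 6.57 to 9.93 (cones over rods), -3.73 to -2.64 (rods over others) and 3.93 to 6.19 (cones over others). *CNGA3* ranged from 7.97 to 11.88 in cones over rods and from -0.95 to 2.21 in rods over the other classes, a change of sign on 0 and 3 UMIs in rods. The values 11.88 for *CNGA3* and 9.93 for *SLC24A2* come from N354, whose rods had no UMI of either, and depend on the prior count. Horizontal cells and astrocytes of N354 had no *SLC24A2* UMI, so 6.19 depends on it too. Over the other classes summed, the ratio there was 16.6 (9.25 to 31.0). Amacrine and ganglion cells had no *CNGA3* or *CNGB3* UMI in either dog. In cones over the other classes *CNGB1* ranged from 1.14 to 3.21 and *SLC24A1* from 0.68 to 2.02, and in cones over rods *CNGB3* from 7.12 to 10.20. Depth limits *CNGA3*, *CNGB3* and *SLC24A2* most, at 66 to 797 UMIs per dog.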

Other observations

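Cells outside the 7 classes carried the 6 genes too. The 268 mixed cells of N350 and 33 of N354 had *CNGA1* levels of 11.5 and 11.0 UMIs per 10000 UMIs, *SLC24A1* levels of 1.60 and 3.45 and *CNGB3* levels of 0.174 and 0.470. The 723 and 207 unassigned cells had *CNGA1* levels of 2.94 and 7.21. In N350 they held 128 of the 797 *SLC24A2* UMIs, a level of 0.639, and in N354 they held 4 of 66, a level of 0.101.

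The dogs differed in opposite directions in the cone genes. In cones, *CNGA3* was 1.74 times (1.42 to 2.14) and *CNGB3* 2.69 times (2.24 to 3.22) as high in N354 as in N350, and *SLC24A2* was 0.282 times (0.200 to 0.388) as high. In rods, *SLC24A1* was 1.30 times (1.24 to 1.35) as high in N354. The intervals are exact and cover counting error only, and dog and annotation cannot be told apart.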
